A study of Mus musculus with 11 samples.

Results

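The oligodendrocyte lineage and myelin genes are 31 genes of oligodendrocyte progenitors, of the steps by which these cells mature and of the myelin they build. They were chosen by name and matched to the Ensembl IDs of the count tables, where all 31 were found among 48709 genes. For description they were sorted by role into 4 progenitor surface genes, 8 lineage transcription factors, 4 genes of differentiation stages, 10 myelin protein genes and 5 lipid enzyme genes. After 48 h with a mimic of the microRNA miR-181a-5p, 0 of the 23 genes abundant enough to be tested were called higher or lower by edgeR than with a control oligonucleotide, and DESeq2 called 1 higher (Cldn11) and 1 lower (Olig1). The genes with the clearest unadjusted differences were Cldn11, which was more abundant with the mimic, and Cspg4, which was less abundant.

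RNA was taken from primary hippocampal cultures of E17 embryos of CD1 mice at day 12 in vitro (DIV12). Lipid nanoparticles that carried the miR-181a-5p mimic (5 samples, called mimic) or the negative control oligonucleotide (6 samples, called control) had been added at DIV10, and no other allele or agent separates the groups in the labels. The study's methods describe hippocampi pooled from the embryos of a litter and ApoE4 protein added along with the nanoparticles. Its results describe primary hippocampal cultures of another experiment, treated with a mix of mimics, as holding neurons and glia. The study sequenced the mimic and control cultures to ask which genes respond to miR-181a-5p. The comparison here covers RNA of the oligodendrocyte lineage among those genes.

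Oligodendrocytes wrap axons of the central nervous system in myelin. They arise from progenitors that carry the PDGF receptor Pdgfra and the NG2 proteoglycan Cspg4 and that need the transcription factor Olig2. They turn on Myrf as they commit to making myelin proteins and lipids. In the mouse hippocampus this last step takes place mostly after birth.

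The mimic has the sequence of mature mouse miR-181a-5p, to which it was identical in RefSeq (GRCm38.p6). A microRNA lowers messenger RNAs by pairing through its seed, nucleotides 2 to 8, mostly with sites in the 3' untranslated region (3' UTR). The sequences of the mimic and of the control oligonucleotide are shown 5' to 3' with the seed in capitals, since they are the only designed difference between the groups.
miR-181a-5p mimic: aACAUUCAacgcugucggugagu
negative control: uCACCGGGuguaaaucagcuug
A 7-nucleotide match of the mimic's seed reads TGAATGT in the messenger RNA. It was searched on the sense strand of each gene's longest 3' UTR, and 10 of the 31 genes held it, namely Pdgfra, Olig2, Sox10, Sox8, Zfp488, Gpr17, Enpp6, Opalin, Tspan2 and Ugt8a. Of the 14489 tested genes with a 3' UTR, 18.5% held it. The median 3' UTR length was 1330 bases for the 31 genes and 1201 bases for the tested genes. None of the 31 held the 8-nucleotide form with an A after the seed match, TGAATGTA. The study's own list of 1121 predicted miR-181a-5p targets contained 1 of the genes, Pdgfra. Zfp488 and the genes with a match whose levels were tested are shown with the match in capitals, except Gpr17, which is named only. A match is a stretch of letters and was not measured as a bound site. Positions of the match are on GRCm38.
Pdgfra, chr5:75197992-75197998, plus strand: tgttgcactttTGAATGTccaaaatttat
Olig2, chr16:91227985-91227991, plus strand: taacaaatctgTGAATGTtccttttcaga
Sox10, chr15:79155401-79155407, minus strand: ccctcttcaccTGAATGTgggaactggtc
Sox8, chr17:25567222-25567228, minus strand: caagtgcctgcTGAATGTgcaggaagcca
Zfp488, chr14:33969353-33969359, minus strand: tattcacactgTGAATGTgtgagaagaga
Tspan2, chr3:102769111-102769117, plus strand: tgccccttgagTGAATGTctgtttctggt
Ugt8a, chr3:125865391-125865397, minus strand: gtatgtatataTGAATGTgaaaacaatgt

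Total counts per sample lay between 17287168 and 48091231, with control replicate 1 the deepest. Where no read of a gene was counted, up to 3 counts remain possible, that is 0.0631 CPM (counts per 1000000 of the scaled library size) for the deepest sample and 0.175 CPM for the shallowest, for counting error alone. Replicates differed by more than counting noise in every pair (chi-square per degree of freedom of at least 1.23). Nothing in the labels says that the samples of a group came from separate cultures, so the p-values measure the spread between these samples, which may be technical. The labelled cell type was checked against its markers. The 10 neuron markers summed to between 8394 and 8799 CPM per sample and the 10 astrocyte markers to between 4543 and 5390 CPM, while the 31 lineage and myelin genes summed to between 410 and 501 CPM.

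Levels of different genes were compared per kb of exon. Olig1, a basic helix-loop-helix factor of the lineage, stood far above the rest with a mean of 126 CPM per kb, higher than 98.7% of the tested genes. The next levels were 6.32 CPM per kb for Olig2, 5.95 for Cnp, 5.8 for Enpp2 and 5.11 for Lhfpl3. These 4 lay near the middle of the transcriptome, whose median tested gene had 3.47 CPM per kb. At the other end, Opalin and Mag, membrane proteins of mature myelin, had 0.0128 and 0.014 CPM per kb. Nkx6-2, a homeodomain factor of myelinating cells, had 0.0102, with 6 counts over all 11 samples. The neuron markers had a median of 129 CPM per kb and the astrocyte markers one of 23.4, against 0.181 for the 31 genes.

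**Figure D1:**
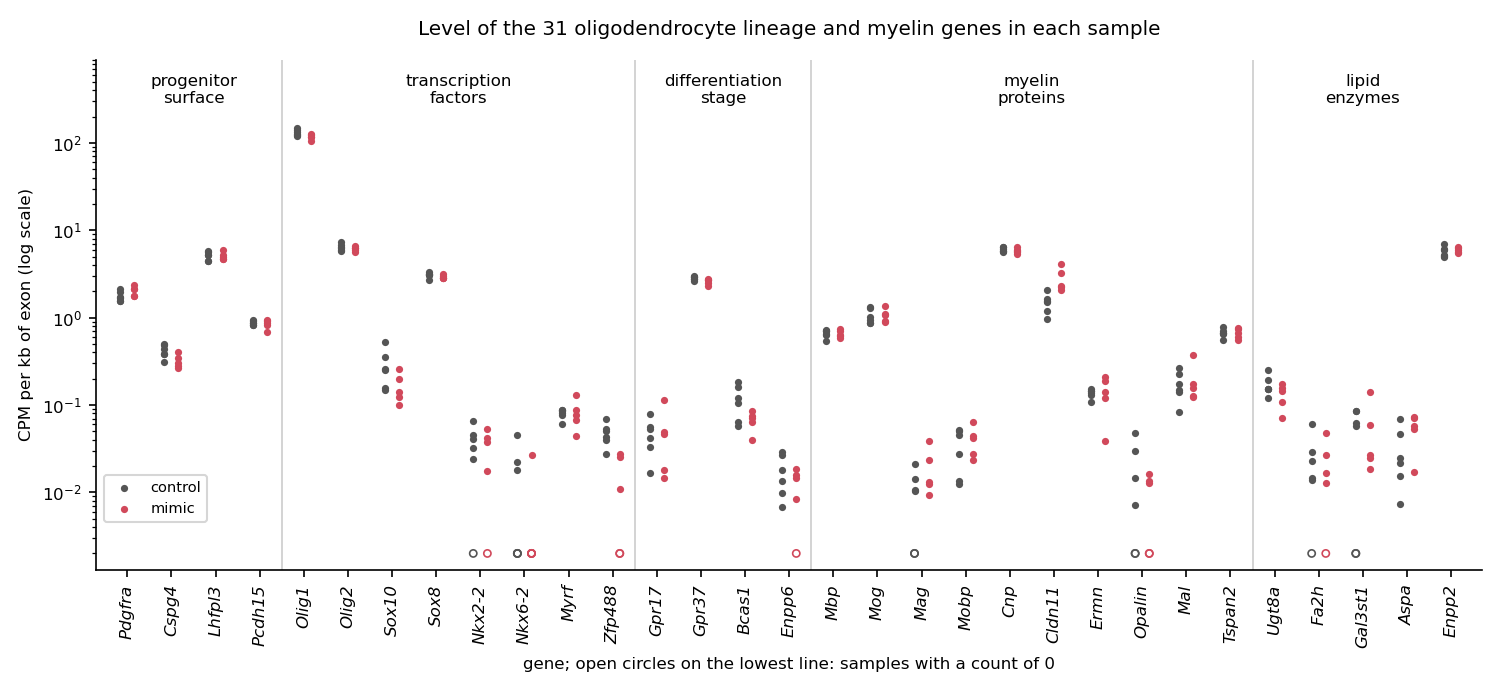
Level of each of the 31 genes in each sample, in CPM per kb of exon on a log scale, with control samples in grey, mimic samples in red and samples with a count of 0 as open circles on the lowest line. Olig1 stands alone near 126 CPM per kb, and 8 genes have a count of 0 in at least 1 sample.

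All 4 progenitor surface genes had reads in every sample, with levels from 0.371 (Cspg4) to 5.11 CPM per kb (Lhfpl3). Among the myelin protein genes the range ran from 0.0128 (Opalin) to 5.95 CPM per kb (Cnp). Cnp, the cyclic nucleotide phosphodiesterase of the myelin sheath, which progenitors already make, was 9.09 times as high per kb as Mbp, the basic protein that compacts myelin, in the median control sample (7.95 to 12.1) and 9.7 times as high in the median mimic sample (7.35 to 10.2). Olig1 exceeded its neighbour and relative Olig2 by 19.5 to 22.1 times per kb in control samples and by 17.4 to 20.6 times in mimic samples. A 157-base stretch of Olig1, 7.26% of its exon length, overlaps the noncoding gene Gm15966 on the opposite strand, and the library kit did not mark strand. Olig2 in turn exceeded Sox10, a further lineage factor, by 14.2 to 39.4 times in control and 21.5 to 63.3 times in mimic samples. Mog, Mbp and Tspan2 lay between 0.657 and 1.06 CPM per kb. Of the 23 genes that were tested, 5 lay above the median level of all tested genes and 11 below its lower quartile of 0.665 CPM per kb.

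The filter, which asked for 5 or more counts in 50% or more of the samples, kept 23 of the 31 genes. The other 8 were Nkx2-2, Nkx6-2, Zfp488, Enpp6, Mag, Opalin, Fa2h and Gal3st1, each with a count of 0 in at least 1 sample. The spread between control samples limited what could be seen. For the 8 genes that averaged 10 CPM or more, the coefficient of variation over control samples ran from 4.59% (Gpr37) to 13.4%, whereas it reached 74% for Aspa.

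In the comparison of mimic with control, 0 of the 23 tested genes passed at 0.05 after Benjamini-Hochberg adjustment over 17365 genes (quasi-likelihood test of edgeR). The background was 2.85% of all tested genes called, 1.08% higher and 1.77% lower in mimic. At an unadjusted p under 0.05, 7 of the 23 genes passed, 2 higher (Cldn11 and Aspa) and 5 lower (Cspg4, Gpr37, Olig1, Sox10 and Bcas1), where 15.7% of all tested genes did, 7.3% higher and 8.41% lower. DESeq2, run as another tool, called 1 gene higher (Cldn11, adjusted p = 0.0118) and 1 lower (Olig1, adjusted p = 0.0456), and it called 3.56% of its tested genes, 1.36% higher and 2.19% lower. Without the count filter, edgeR called Pdgfra higher and Cspg4 and Sox10 lower, where it called 2.48% of 31595 genes, 0.95% higher and 1.54% lower. The groups of mimic and control samples overlapped for all 23 genes, and they did not for 2.89% of all tested genes. The median log2 fold change of the 23 genes was -0.03 and that of all tested genes -0.0001. By fitted direction 15 were lower and 8 higher in mimic, and the 95% intervals of all but the 7 genes above included 0. In bulk RNA, fewer cells of a type and less RNA per cell cannot be told apart.

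**Figure D2:**
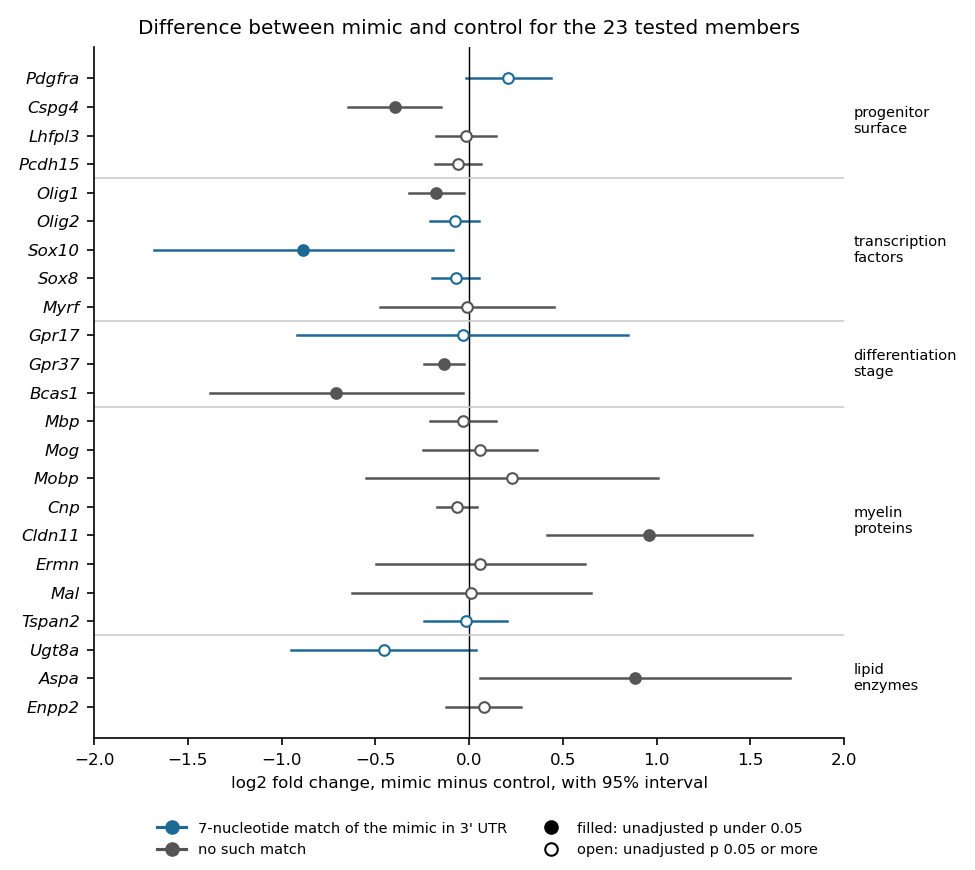
Log2 fold change (mimic minus control) of the 23 tested genes with 95% intervals, in blue for genes whose 3' UTR holds the 7-nucleotide match and grey for the others, filled where the unadjusted p is under 0.05. The intervals of 7 genes leave out 0, those of Cldn11 and Aspa to the right and those of Cspg4, Olig1, Sox10, Gpr37 and Bcas1 to the left.

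Among the progenitor surface genes 3 were lower and 1 was higher in mimic by fitted direction, with a median log2 fold change of -0.04. Their summed level was 56.8 to 67.9 CPM in control and 54.5 to 67.5 CPM in mimic. Cspg4 (ENSMUSG00000032911, chromosome 9, 56865033 to 56899870), the NG2 proteoglycan, had 3.75 CPM in the lowest, 4.87 in the median and 5.93 in the highest control sample. In mimic replicates 1 to 5 it had 3.35, 3.57, 4.76, 4.14 and 3.17 CPM. The highest mimic samples reached into the control range, and 3 of the 5 mimic values lay below every control value. The log2 fold change of Cspg4 was -0.40 (SE 0.121, 95% interval -0.65 to -0.15, adjusted p = 0.0782 by edgeR). Leaving out 1 sample was enough to move it past the threshold, with an adjusted p of 0.0208 without control replicate 4 and 0.0379 without mimic replicate 3, against 0.237 without control replicate 1.

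Pdgfra (ENSMUSG00000029231, chromosome 5, 75152292 to 75198215), the receptor through which PDGF keeps progenitors dividing, was the predicted target among the genes. Its 3' UTR held, beside the mimic's match, a 7-nucleotide match of the negative control's seed (CCCGGTG), the only 1 of the 31 genes that did. In control it ranged from 15.5 through a median of 17.1 to 21.5 CPM. The mimic samples had 17.9, 17.7, 21.4, 21.4 and 23.8 CPM. The groups overlapped widely, and mimic replicate 5 alone lay above all control samples. Its log2 fold change was 0.21 (SE 0.103, 95% interval -0.01 to 0.43, adjusted p = 0.361 by edgeR) so that it did not pass the test. It was called without the count filter (adjusted p = 0.032 by edgeR) and with a block on the replicate number (0.0135 by edgeR), although the numbers do not pair the samples. The interval ran from 0.99-fold to 1.35-fold of control. Lhfpl3, a tetraspan-like membrane protein and the most abundant of these genes per kb, had 14.3 to 18.6 CPM in control (median 16.7) and 14.9, 16.9, 15.7, 15.1 and 19 CPM in mimic. For this gene the samples of both groups were interspersed, with a log2 fold change of -0.02 (95% interval -0.18 to 0.14). Pcdh15, a protocadherin found on progenitors, had a log2 fold change of -0.06.

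All 5 tested lineage transcription factors were lower in mimic by fitted direction, none past the test (lowest adjusted p = 0.221 by edgeR), with a median log2 fold change of -0.08. Their summed level, which Olig1 dominates, was 286 to 355 CPM in control and 254 to 300 CPM in mimic. Olig1 (ENSMUSG00000046160, chromosome 16, 91269772 to 91271933) had 261, 283 and 324 CPM in the lowest, median and highest control sample. It had 252, 265, 273, 250 and 229 CPM in mimic replicates 1 to 5. Its groups overlapped through control replicates 2 and 4 and mimic replicates 2 and 3, and the other 3 mimic samples lay below all control samples. The log2 fold change was -0.17 (SE 0.0653, 95% interval -0.32 to -0.03, adjusted p = 0.221 by edgeR). DESeq2 gave -0.17 as well and called it. Of the 10 astrocyte markers 8 were lower and 2 higher in mimic by fitted direction, with 1 called lower (Slc1a2) and 0 higher by edgeR. Their summed level was 4950 to 5390 CPM in control and 4543 to 4860 CPM in mimic. Slc1a2 alone had a mean of 2398 CPM in control and 2109 CPM in mimic. The part of astrocyte RNA in the level of Olig1 was not tested.

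Sox10 (ENSMUSG00000033006, chromosome 15, 79154908 to 79165240), an HMG box factor kept through all stages of the lineage, was scarce. In the control group it had 0.451 CPM in the lowest, 0.77 in the median and 1.6 in the highest sample, from 11 to 76 counts. The mimic samples had 0.608, 0.304, 0.433, 0.797 and 0.379 CPM, from 8 to 20 counts. Control replicates 1 and 6 lay above every mimic sample, and the other 4 control samples were mixed with the mimic samples. Its log2 fold change of -0.88 (SE 0.375, adjusted p = 0.261 by edgeR) became -0.45 without control replicate 1, with an unadjusted p that rose from 0.0322 to 0.13 in the same edgeR test.

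Olig2, the factor that sets the lineage and that holds a match of the mimic, had 14.7 to 18.8 CPM in control (median 16) and 16.9, 16, 15.8, 14.2 and 15.1 CPM in mimic. Sox8, a relative of Sox10 that also holds a match, had 8.4 to 10.3 CPM in control (median 9.7) and 8.87, 8.89, 9.79, 9.28 and 8.86 CPM in mimic. Both genes had groups that overlapped and narrow intervals, from 0.866-fold to 1.04-fold of control for Olig2 and from 0.871-fold to 1.04-fold for Sox8. Myrf, the membrane-bound activator of myelin genes, had 0.516 to 0.759 CPM in control and 0.379 to 1.12 CPM in mimic, with a log2 fold change of -0.01 whose interval ran from -0.47 to 0.45. Zfp488, a zinc finger repressor of the lineage, was too scarce for the test. It had 2 to 11 counts per control sample, or 0.117 to 0.301 CPM with a median of 0.201. Mimic replicates 1 to 5 had 0, 0, 0.108, 0.119 and 0.0474 CPM, or at most 3 counts. Most values of Zfp488 lay near the limit that a count of 0 allows, and when no filter was applied edgeR gave a log2 fold change of -1.86, which depends on the prior count at such levels, with an adjusted p of 0.0539. Nkx2-2, a homeodomain factor that promotes differentiation, had at most 9 counts in a sample.

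The 4 genes of differentiation stages mark cells between progenitor and myelinating oligodendrocyte. The 3 that were tested were lower in mimic by fitted direction, with 0 called by edgeR and 2 at an unadjusted p under 0.05 (Gpr37 and Bcas1). Gpr37 (ENSMUSG00000039904, chromosome 6, 25665878 to 25690729), an orphan receptor that holds back the maturation of oligodendrocytes, was the most abundant of them. It had 15.9, 17.3 and 18.2 CPM in the lowest, median and highest control sample. The mimic samples had 16.4, 15.3, 16.7, 16.2 and 14.1 CPM. Control replicate 3, at 15.9 CPM, lay within the mimic range, and the other 5 control samples lay above every mimic sample. The log2 fold change was -0.13 (SE 0.0516, 95% interval -0.24 to -0.03, adjusted p = 0.183 by edgeR).

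Bcas1, a marker of oligodendrocytes that begin to myelinate, had 0.218 to 0.7 CPM in control (median 0.429) and 0.152, 0.266, 0.325, 0.239 and 0.284 CPM in mimic. These were 5 to 19 and 3 to 7 counts per sample, the groups overlapped, and the log2 fold change of -0.71 had an adjusted p of 0.287 by edgeR. Gpr17, a receptor of committed precursors that holds a match, had 0.086 to 0.413 CPM in control (median 0.245) and 0.253, 0.076, 0.595, 0.239 and 0.0948 CPM in mimic. Mimic replicate 3 was the highest and mimic replicate 2 the lowest of all 11 samples for Gpr17. Enpp6, a choline phosphodiesterase of newly formed oligodendrocytes that also holds a match, was not tested. It had 0.0435 to 0.184 CPM in control (median 0.101) and 0.101, 0, 0.0541, 0.119 and 0.0948 CPM in mimic, at most 5 counts in any sample.

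**Figure D3:**
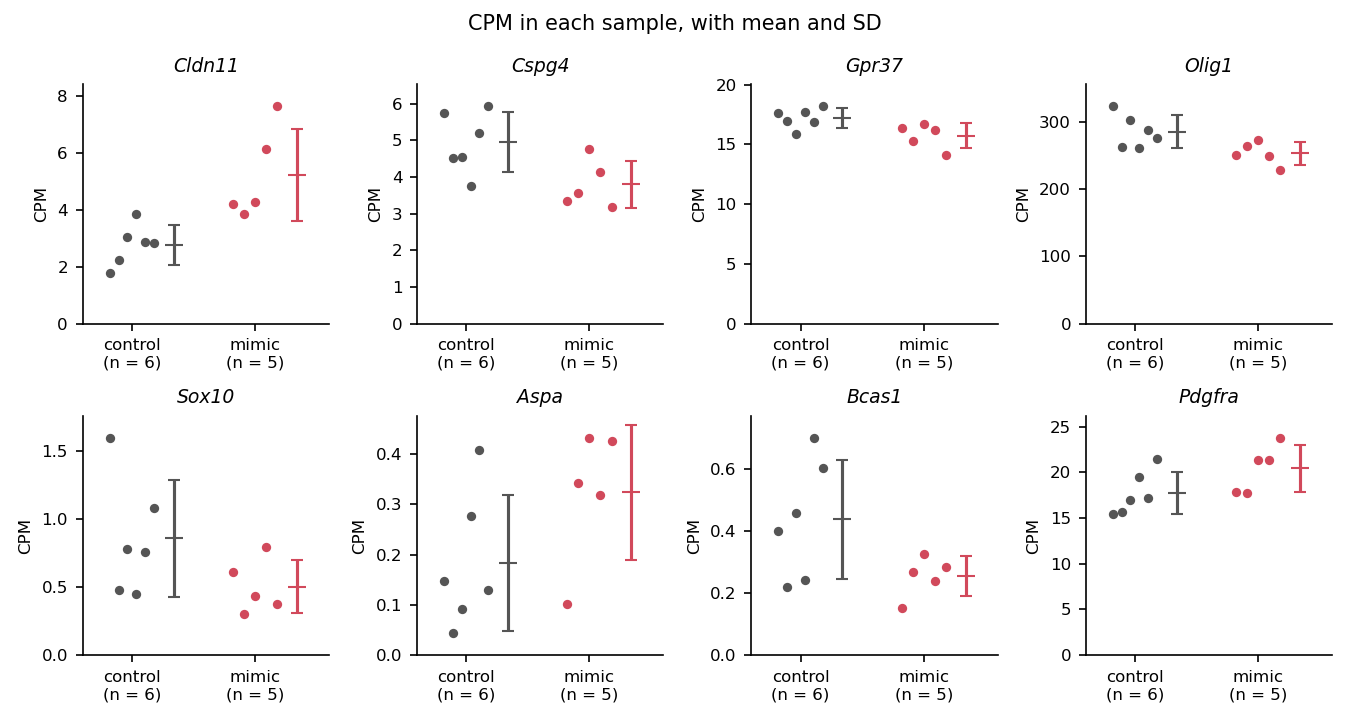
CPM in each sample (points, in replicate order) with the mean and SD of the group, for the 7 genes with an unadjusted p under 0.05 and for Pdgfra, on axes that start at 0. The mimic samples of Cldn11 start at 3.84 CPM, just under the highest control sample at 3.85 CPM, and the groups overlap in every panel.

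Of the 8 tested myelin protein genes 5 were higher and 3 lower in mimic by fitted direction, with a median log2 fold change of 0.03 and 0 called by edgeR. Their summed level was 35.1 to 38.1 CPM in control and 36.2 to 40.5 CPM in mimic. Cldn11 (ENSMUSG00000037625, chromosome 3, 31149920 to 31164324), the claudin of the tight junctions between myelin layers, had the lowest p of the 23 genes. Its control samples had 1.79 CPM at the lowest, 2.85 at the median and 3.85 at the highest. The mimic samples had 4.21, 3.84, 4.27, 6.13 and 7.63 CPM. Only mimic replicate 2, at 3.84 CPM, and control replicate 4, at 3.85 CPM, kept the groups from standing apart. The log2 fold change of Cldn11 was 0.96 (SE 0.246, 95% interval 0.41 to 1.51), a 1.95-fold difference, with an adjusted p of 0.0737 by edgeR. DESeq2, edgeR without robust dispersions and limma on the authors' normalized table called it, and so did edgeR without control replicate 4 (adjusted p = 0.0379). Over all the alternatives its log2 fold change stayed between 0.80 and 1.11, with an adjusted p between 0.000339 and 0.163.

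Cldn11 is also made by cells of the meninges. Of the list of 10 fibroblast and mural markers 8 were tested, 6 higher and 2 lower (Rgs5 and Acta2) in mimic by fitted direction. Its most abundant genes were Col1a1, Col1a2 and Col3a1. The summed level of that list was 262 to 397 CPM in control and 406 to 539 CPM in mimic, without overlap. Of its 8 tested genes 0 were called higher and 1 lower by edgeR, and 6 were higher at an unadjusted p under 0.05. DESeq2 called 3 higher, namely Col1a1 (adjusted p = 0.0196), Col1a2 (0.00163) and Col3a1 (0.0295), and 1 lower. The collagen gene Col1a2 had 56.7 to 89.9 CPM in control and 101 to 134 CPM in mimic, a log2 fold change of 0.56 (adjusted p = 0.0609 by edgeR). Dcn, which encodes the matrix proteoglycan decorin, had 17.1 to 27.6 and 27.8 to 44.7 CPM. Mimic replicates 4 and 5 were the highest samples for Cldn11, Col1a2 and Dcn, and control replicate 1 was the lowest for all 3 genes. The part of the fibroblast genes in the level of Cldn11 was not tested. Pdgfra, too, is made by fibroblasts as well as by progenitors, and mimic replicate 5 was its highest sample and control replicate 1 its lowest. That part was not tested either.

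Cspg4 is likewise shared with another cell type, the pericytes of small vessels. Rgs5, a pericyte gene of the same list, was called lower, with 9.23 to 15.9 CPM in control and 6.81 to 8.77 CPM in mimic and a log2 fold change of -0.66 (adjusted p = 0.0227 by edgeR). Pdgfrb, a receptor of pericytes and fibroblasts, had 18 to 23.7 CPM in control and 21.8 to 25.4 CPM in mimic, with a log2 fold change of 0.15. The pericyte genes Kcnj8 and Abcc9 were too scarce to be tested, and Kcnj8 had a count of 0 in 8 of the 11 samples. The part of pericyte RNA in the level of Cspg4 was not tested.

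**Figure D4:**
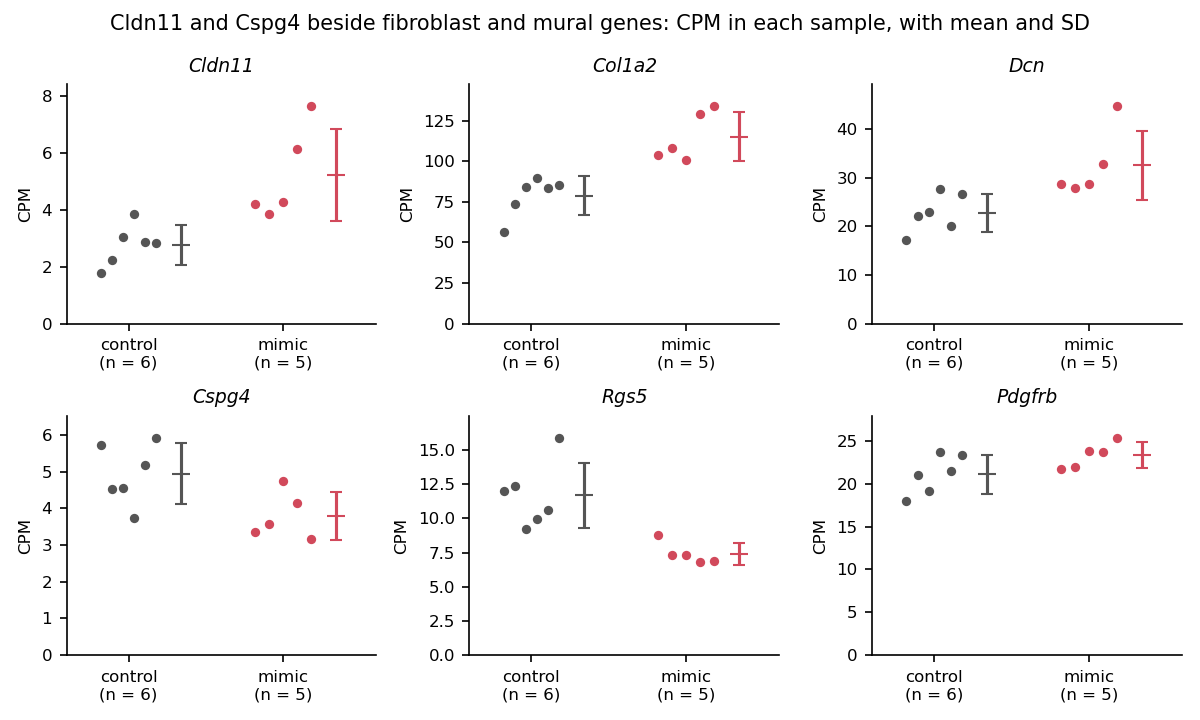
CPM in each sample (points, in replicate order) with the mean and SD of the group, for Cldn11 beside the fibroblast genes Col1a2 and Dcn and for Cspg4 beside Rgs5 and Pdgfrb, on axes that start at 0. Mimic replicates 4 and 5 are the highest samples of Cldn11, Col1a2 and Dcn, and every mimic sample of Rgs5 lies below every control sample.

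The other myelin protein genes were close to equal between the groups or too scarce to tell. Cnp had 20.5, 21.8 and 23.6 CPM in the lowest, median and highest control sample. It had 21.5, 20.8, 23.6, 20.4 and 19.6 CPM in the mimic samples, which spanned the control range. The log2 fold change of Cnp was -0.06 (SE 0.0514), with an interval from 0.889-fold to 1.03-fold of control. Tspan2, a tetraspanin of early myelin that holds a match, had 2.66 to 3.7 CPM in control (median 3.17) and 3.14, 3.65, 2.87, 2.63 and 3.55 CPM in mimic, with fully interspersed samples and a log2 fold change of -0.02. Mbp differed by -0.03 (interval -0.21 to 0.14) and Mog, a surface glycoprotein of the outermost myelin layer, by 0.06 (interval -0.25 to 0.36) on the log2 scale. The intervals of Mobp, Ermn and Mal, at most 1.04 CPM in any sample, were wider, and that of Mobp ran from 0.682-fold to 2.01-fold. Opalin, which holds a match, had at most 4 counts in any sample, 0 to 0.139 CPM in control (median 0.032) and 0, 0.038, 0, 0.0398 and 0.0474 CPM in mimic. Mag likewise had at most 4 counts. For both genes a difference was not detectable at this depth.

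The 5 lipid enzyme genes hold those that make and turn over myelin lipids, and 0 of the 3 tested were called by edgeR. Enpp2, which encodes autotaxin, the secreted enzyme that makes lysophosphatidic acid, was the most abundant. It had 28.3, 32 and 39.7 CPM in the lowest, median and highest control sample. The mimic samples had 31.4, 34.5, 35.9, 37.6 and 32.5 CPM, all within the control range, and the log2 fold change was 0.08 (SE 0.0907, 95% interval -0.12 to 0.28). The choroid plexus also makes much Enpp2, and its 6 markers summed to 266 to 338 CPM in control and 264 to 369 CPM in mimic, with 0 of 6 called.

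Aspa (ENSMUSG00000020774, chromosome 11, 73304992 to 73329596), the enzyme that splits N-acetylaspartate, was near the limit of detection. It had 0.0435, 0.138 and 0.409 CPM in the lowest, median and highest control sample, from 1 to 8 counts. In mimic it had 0.101, 0.342, 0.433, 0.319 and 0.426 CPM, from 2 to 9 counts. Mimic replicate 1 lay among the low control samples and control replicate 5 among the high mimic samples. Its log2 fold change of 0.89 had an SE of 0.403 and an adjusted p of 0.277 by edgeR. Ugt8a, which makes galactosylceramide, the main glycolipid of myelin, and whose 3' UTR holds a match, had 0.551 to 1.14 CPM in control (median 0.697) and 0.659, 0.798, 0.487, 0.319 and 0.711 CPM in mimic. The groups overlapped for Ugt8a, whose log2 fold change was -0.46 (SE 0.241, adjusted p = 0.373 by edgeR), and -0.23 without control replicate 1, its highest sample. Fa2h and Gal3st1, which hydroxylate and sulfate these lipids, had at most 6 counts in any sample.

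The genes with and without the 7-nucleotide seed match were then set side by side. Of the 10 genes with the 7-nucleotide match 7 were tested, 6 of them lower and 1 (Pdgfra) higher by fitted direction, with 0 called by edgeR and a median log2 fold change of -0.07. Of the 21 genes without it 16 were tested, 9 lower and 7 higher, with 0 called by edgeR and a median of -0.01. Cldn11 and Olig1, which DESeq2 called, are among these. Shorter matches were not counted. The 3' UTRs of Cspg4, Lhfpl3, Nkx2-2, Mbp and Ermn held the 6-nucleotide match GAATGT, which in Ermn was followed by an A. Over all tested genes with a 3' UTR the medians were -0.02 with and 0.01 without a match. These are descriptions of fitted values, and no difference between genes with and without a match was tested among the 31.

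Further genes of the same pathways showed a few changes. Of 20 other progenitor genes 19 were tested, and 2 were called lower and 0 higher by edgeR, with a median log2 fold change of -0.07. They were Xylt1, a xylosyltransferase that starts glycosaminoglycan chains, and Tnr, the matrix protein tenascin-R. DESeq2 called Rlbp1 lower as well (log2 fold change -0.48, adjusted p = 0.0154 by DESeq2 and 0.0941 by edgeR). Xylt1 fell from 84.1 ± 5.13 CPM in control (SD, n = 6) to 72.6 ± 3 CPM in mimic (SD, n = 5), with a log2 fold change of -0.21 (adjusted p = 0.00237 by edgeR). Tnr fell from 124 ± 5.79 CPM in control (SD, n = 6) to 112 ± 4.21 CPM in mimic (SD, n = 5), with a log2 fold change of -0.15 (adjusted p = 0.012 by edgeR). Both genes are also made by neurons, whose 10 markers summed to 8593 to 8799 CPM in control and 8394 to 8544 CPM in mimic, and the part of those cells was not tested. The 3' UTR of Xylt1 held the 8-nucleotide match of the mimic and that of Tnr the 7-nucleotide match.

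Of 25 other oligodendrocyte and myelin genes 21 were tested, and 2 were called higher and 0 lower by edgeR, with a median log2 fold change of -0.02. Both had groups that did not overlap. Anln, which encodes the actin-binding protein anillin and acts in cell division as well as in myelin, rose from 14.2 ± 1.01 CPM in control (SD, n = 6) to 16.7 ± 0.683 CPM in mimic (SD, n = 5), with a log2 fold change of 0.24 (adjusted p = 0.0127 by edgeR). All 8 proliferation markers were higher in mimic at an unadjusted p under 0.05, and edgeR called 3 of them higher (Top2a, Cdk1 and Bub1) and 0 lower. Their summed level was 57.3 to 66.6 CPM in control and 67.5 to 82 CPM in mimic, and their part in the change of Anln was not tested. Ndrg1, a cytosolic protein of myelinating cells that also answers stress, rose from 19.4 ± 1.06 CPM in control (SD, n = 6) to 21.9 ± 0.383 CPM in mimic (SD, n = 5), with a log2 fold change of 0.18 (adjusted p = 0.0308 by edgeR). The 3' UTR of Ndrg1 held the 7-nucleotide match as well, and that of Anln did not. Of 17 genes of signals that act on the lineage 16 were tested and 0 were called by edgeR, with 1 higher and 2 lower at an unadjusted p under 0.05.

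The samples themselves did not order the genes in 1 way. Among control samples, control replicate 6 was the highest for 7 of the 23 tested genes and control replicate 1 for 6, and control replicate 4 was the lowest for 7. Among mimic samples, mimic replicate 3 was the highest for 9 genes, and mimic replicates 2 and 5 were the lowest for 7 each. Without control replicate 1, the deepest sample, 0 of the genes and 1.25% of all tested genes were called by edgeR, and 1 higher and 3 lower passed at an unadjusted p under 0.05.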

How the data were processed

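RNA sequencing was analysed in 6 control and 5 mimic samples, grouped by their labels. Per the labels and the study's methods, the authors made poly(A) libraries with a kit that does not mark strand, mapped single-end reads to mm10 with STAR 2.5.2b, counted reads per Ensembl gene with featureCounts (Subread 1.5.1), and deposited raw counts per sample. The annotation and the treatment of reads mapping to several places are not given in the sources used here. A second deposited table, of normalized signal, covers 16921 genes and equals the counts divided by 1 factor per sample, which served an alternative only. All its value columns were assigned to samples (0 left over).

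Gene names, positions, exon lengths and 3' UTRs came from GENCODE M21 on GRCm38, in which 48349 of 48709 IDs were found. All 47808 derived 3' UTRs followed a stop codon. A gene entered the test when 50% or more of the samples had 5 or more counts, which 17365 genes did. The test was edgeR 4.0.16 with quasi-likelihood F, two-sided (R 4.3.3, TMM scaling, robust dispersions, group as the sole term). Genes were called at a Benjamini-Hochberg adjusted p under 0.05. The filter and threshold follow the study's methods, whose tool, DESeq2, was an alternative (version 1.42.0), and limma was 3.58.1. The script was tested on simulated data. Standard errors came from the log2 fold change over the root of F, and 95% intervals used the t distribution with the fit's degrees of freedom. CPM used TMM-scaled library sizes. A SD beside a mean is over samples. Depth was 17287168 to 48091231 counts, and limits for counts of 0 cover counting error only, since reads carry no molecular identifiers.

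Values per sample are given for genes called, for the 6 lowest unadjusted p values, for the most abundant gene per kb of each role, for Pdgfra and for genes whose 3' UTR holds the 7-nucleotide match. Bcas1 was added after its values were seen, as were the fibroblast and mural genes set beside Cldn11 and Cspg4. Other genes of the pathway lists are named where called, and 1 further gene that the rule names is not reported here. The genes and lists were chosen with earlier results of these data known. Alternatives were DESeq2, other scaling, other filters, no robust estimation, the normalized table (limma on log2 of value plus 1), leaving out each sample and a block on the replicate number. Counts at an unadjusted p were compared across them after seeing the data.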

Additional observations from a re-analysis of the deposited data

Results flagged for a closer look

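Values of 1 sample far from the others of its group were looked for in the CPM of the 23 tested genes and in the total counts, 48 sets of values in all, by the gap to the nearest sample over the range of the group. Chance gives about 1 in 20 such sets, or 2.4 here, and 2 were found. Sox8 had 8.4 CPM in control replicate 2, against 9.6 CPM in the next lowest control sample, a gap of 0.642 of the range. Mal, a proteolipid of myelin membranes, had 1.04 CPM in mimic replicate 5, against 0.487 CPM in the next highest mimic sample, a gap of 0.793 of the range. The log2 fold change of Mal was 0.01 with that sample and -0.37 without it.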

How the results depend on the processing

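Of 432 refits of the 23 tested genes over 19 alternatives, 383 kept the direction and did not cross the threshold. They include the DESeq2 refits of Bcas1, Mobp and Aspa, which have no adjusted p. A further 12 kept the direction and moved below an adjusted p of 0.05, 0 moved above it, and 37, spread over 9 genes, changed sign. DESeq2, no count filter, no robust estimation and limma on the normalized table each called 1 gene higher, and DESeq2 called 1 and no count filter 2 lower. Cldn11 was called by DESeq2 (adjusted p = 0.0118), by edgeR without robust estimation (0.00627) and by limma on the normalized table (0.00929). The share of all genes called was 3.56% by DESeq2, 2.89% without robust estimation and 2.45% by limma. Without the count filter, which raised the genes tested to 31595, the calls were Pdgfra (0.032), Cspg4 (0.00308) and Sox10 (0.0103), and Cldn11 had 0.107. Leaving out 1 sample gave 0 to 1 gene called higher and 0 to 1 lower. These were Cldn11 and Cspg4 without control replicate 4 (2.29% of all genes called), and Cspg4 without mimic replicate 3 (2.79%). Over all genes the share called fell from 2.85% to 1.25% without control replicate 1, 1.35% without mimic replicate 2 and 1.59% without mimic replicate 4. At an unadjusted p under 0.05 these refits held 1 to 3 genes higher and 2 to 5 lower, with 2 lower without mimic replicate 5, and filterByExpr, which leaves out Gpr17, Bcas1, Mobp and Aspa, held 1 higher.

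Sign changes were of genes with a log2 fold change near 0. Leaving out 1 sample moved Lhfpl3 between -0.0725 and 0.0227, Pcdh15 between -0.0955 and 0.0139, Myrf between -0.22 and 0.14, Gpr17 between -0.55 and 0.24, Mbp between -0.0796 and 0.0111, Mog between -0.0535 and 0.13, Ermn between -0.14 and 0.29, Mal between -0.37 and 0.26, and Tspan2 between -0.0826 and 0.0545. Myrf became 0.0014 with DESeq2 and 0.0009 with upper-quartile scaling, Gpr17 became 0.0095 with DESeq2, and Ermn became -0.13 in the normalized table. The median over the tested genes ran from -0.0640 to 0.0048 under the alternatives, and it was above 0 only without control replicate 1. That of the progenitor surface genes and transcription factors stayed below 0 (-0.1310 to -0.0548). That of the myelin protein and lipid enzyme genes stayed above 0 (0.0093 to 0.1080).

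Same-numbered control and mimic samples did not deviate together (correlations -0.0232 to 0.0158 over 5 pairs), so the numbers do not pair the samples. A block on the replicate number, fitted without control replicate 6 since it has no partner, called 2 genes higher (Cldn11, adjusted p = 0.000339, and Pdgfra, 0.0135) and 0 lower, beside 1.87% of all genes, and held 3 genes lower at an unadjusted p under 0.05. Under the block Lhfpl3 was 0.0193, Myrf 0.0012, Mal -0.0294 and Tspan2 0.0219. The cause of these changes was not tested. Depth limits the 8 genes left out by the filter, of which Zfp488 came closest to a call without it (adjusted p = 0.0539).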
